A study of Mus musculus with 12 samples.

Results

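Sox1, Pax6, Six3, Gsx1, Olig1, Olig2, Neurog1, Neurod1 and Insm1 encode transcription factors that build the nervous system, and their RNA was followed through a study of mouse embryonic stem cells. These 9 genes of the 24421 gene rows in the deposited count table were chosen by symbol with earlier results of the same libraries known, so their values are given as a description, with no test of their own. The series holds 12 libraries of polyadenylated RNA from the embryonic stem cell line E14, in 4 groups of 3. KO paused cells were Mettl3-KO by label and had been kept for 2 weeks with 200 nM INK128, an inhibitor of the growth kinase mTOR. KO FBS cells were Mettl3-KO cells in serum and LIF without the inhibitor, WT paused cells were wild type with the inhibitor, and WT FBS cells were wild type without it. All 4 groups were grown on gelatin in FBS/LIF medium. The labels give neither the edited part of Mettl3 nor the number of clones behind the KO libraries, and they do not say whether replicates came from separate cultures, so error bars and p-values measure the spread between these libraries.

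Mettl3 is the catalytic subunit of the complex that places N6-methyladenosine on messenger RNA, a mark that among other effects shortens the life of many transcripts. Blocking mTOR brings embryonic stem cells into a paused state that resembles the dormant embryo of diapause. Neural tissue forms in steps: SOX1 and PAX6 mark and maintain progenitors of the neural plate and tube, SIX3 and GSX1 give forebrain and ventral telencephalic progenitors their identity, OLIG1 and OLIG2 act in the ventral spinal cord and in oligodendrocyte precursors, and the proneural factor NEUROG1 starts a cascade through NEUROD1 and INSM1 toward neurons. OLIG1, OLIG2, NEUROG1 and NEUROD1 are basic helix-loop-helix (bHLH) proteins, which bind the E-box, CANNTG. Undifferentiated embryonic stem cells are known to keep most of these genes silent or low.

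All 9 genes were placed on GRCm38 from GENCODE vM21. Sox1 lies at chr8:12395295-12400126 (plus strand), Pax6 at chr2:105668900-105697364 (plus), Six3 at chr17:85613608-85629302 (plus) and Gsx1 at chr5:147188696-147190947 (plus). Olig2 at chr16:91225457-91228677 and Olig1 at chr16:91269772-91271933, both on the plus strand, are neighbours 41094 bp apart. Neurog1 lies at chr13:56250478-56252163 (minus), Neurod1 at chr2:79452521-79456751 (minus) and Insm1 at chr2:146221921-146225020 (plus). RefSeq promoter windows (GRCm38.p6, 250 bases before to 50 after a transcript's start, which can differ from GENCODE's gene start) were found for 7 of the 9 genes, with 8 windows because Pax6 has 2. The windows of 4 genes are printed because their RNA took 4 different courses over the groups: Sox1 was the member that stood lower in KO cells in both conditions, Gsx1 changed its order between conditions, Neurod1 was high in both KO groups, and Neurog1 was the member that fell on pausing of KO cells. Capitals mark E-boxes, read as CANNTG, a pattern whose reverse complement is the same pattern.
Sox1, chr8:12395269-12395568, plus strand: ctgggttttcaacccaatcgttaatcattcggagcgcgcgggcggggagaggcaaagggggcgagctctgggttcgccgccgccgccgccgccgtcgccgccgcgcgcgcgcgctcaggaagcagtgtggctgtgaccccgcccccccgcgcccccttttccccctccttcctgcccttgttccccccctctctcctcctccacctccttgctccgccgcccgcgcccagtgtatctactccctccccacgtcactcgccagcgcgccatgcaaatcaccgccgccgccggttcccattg
Gsx1, chr5:147188446-147188745, plus strand: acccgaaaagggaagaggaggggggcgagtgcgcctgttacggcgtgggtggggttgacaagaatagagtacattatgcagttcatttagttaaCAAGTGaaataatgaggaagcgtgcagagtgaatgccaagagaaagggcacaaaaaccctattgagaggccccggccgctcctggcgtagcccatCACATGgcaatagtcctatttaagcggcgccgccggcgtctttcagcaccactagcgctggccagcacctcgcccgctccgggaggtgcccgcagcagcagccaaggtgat
Neurod1, chr2:79456587-79456886, minus strand: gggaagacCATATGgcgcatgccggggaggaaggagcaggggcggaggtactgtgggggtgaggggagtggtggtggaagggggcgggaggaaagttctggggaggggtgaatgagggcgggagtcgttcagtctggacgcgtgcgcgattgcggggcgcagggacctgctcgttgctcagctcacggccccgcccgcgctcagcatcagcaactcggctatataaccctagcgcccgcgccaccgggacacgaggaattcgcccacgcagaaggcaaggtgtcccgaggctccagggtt
Neurog1, chr13:56252131-56252430, minus strand: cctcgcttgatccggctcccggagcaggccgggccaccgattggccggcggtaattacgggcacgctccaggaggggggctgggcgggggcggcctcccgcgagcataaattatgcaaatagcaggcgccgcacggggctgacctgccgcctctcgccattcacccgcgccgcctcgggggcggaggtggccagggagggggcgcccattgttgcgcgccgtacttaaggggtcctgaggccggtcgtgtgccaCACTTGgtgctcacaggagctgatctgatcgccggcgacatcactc
The Gsx1 window held 2 E-boxes, the Neurod1 and Neurog1 windows 1 each, the second Pax6 window 1, and the windows of Sox1, Olig2, Six3 and the first Pax6 start none. Of all 32851 RefSeq windows of the same length, 72.3% held at least 1. CG dinucleotides numbered 37 in the Sox1 window, 32 in that of Neurog1, 26 in that of Neurod1 and 19 in that of Gsx1, and the lowest of the 8 windows was that of Six3 with 14, where the median of all windows was 7. A match to these letters is a description of the window, not a bound site.

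Since Mettl3 was the targeted gene, the transcripts were also read for GGAC, the core letters of the motif it methylates. In the longest protein-coding GENCODE transcript of each gene, read on the sense strand, GGAC occurred 16 times in Sox1, 23 in Pax6, 7 in Six3, 9 in Gsx1, 9 in Olig1, 9 in Olig2, 6 in Neurog1, 13 in Neurod1 and 12 in Insm1. Per kilobase that was between 1.9 in Six3, above 6.47% of genes, and 5.2 in Pax6, above 69.9%. The median was 4.19 over the 13813 tested genes with such a transcript, 99.7% of which held the motif at least once. Pax6, Gsx1 and Neurod1 stood above that median and the other members below it. Methylation itself was not measured.

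The libraries held 10339130 to 39034079 gene counts, and all 9 genes passed the filter on low counts among 15281 genes. Mettl3 itself stood at 28.8 to 31.4 CPM in KO paused, 25.8 to 28.4 in KO FBS, 33.6 to 39.2 in WT paused and 31.6 to 36.5 in WT FBS libraries, so its RNA was present in the libraries labelled KO at a level a little below every WT library. Counts over the whole gene do not show whether the message was edited, and KO below is used as the label gives it. Kdm5d, Ddx3y, Uty and Eif2s3y, genes of the Y chromosome, had 593 to 3124 counts each in the 6 KO libraries and 0 to 7 in the 6 WT libraries, so the KO and WT cells differ by more than Mettl3, and the part of that difference in the genotype comparisons was not tested. WT FBS replicate 1 stood apart from its group in several neural genes, and results that rest on it are given with and without it. Values are CPM, which are counts divided by the library size in megareads after scaling with edgeR's TMM, called the relative scale because they set each gene against most others. A second scale, called per cell, divides by the synthetic ERCC RNA added to RNA from equal numbers of cells, and the ratio of gene to ERCC counts was 36.5, 40.3 and 38.2 in KO paused libraries and 47.4, 93.5 and 64.6 in KO FBS libraries. WT paused libraries had ratios of 29.0, 37.4 and 32.6, and WT FBS libraries of 72.4, 73.3 and 74.6. A higher level can come from more cells with the RNA or from more RNA per cell, and bulk libraries cannot tell these apart.

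On the relative scale, the RNA of 8 of the 9 factors was higher after pausing of KO cells and that of Neurog1 was lower. In WT cells Sox1 alone stood higher, and Neurod1, Insm1 and Six3 (0 against 9 counts) stood lower. Per cell, 4 of the 9 were called higher and 1 lower on pausing of KO cells, where 2.45% of all tested genes were called higher and 45.7% lower. On pausing of WT cells 1 was called higher and 5 lower, beside 1.15% and 68.8% of all tested genes. Against WT cells of the same condition, KO cells held more of every member except Sox1 when paused, and more of every member except Sox1 and Gsx1 in FBS. These directions are what the rule selected on, and the sections on each gene give the libraries behind them. The plot of CPM by library shows all 108 values.

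**Figure D1:**
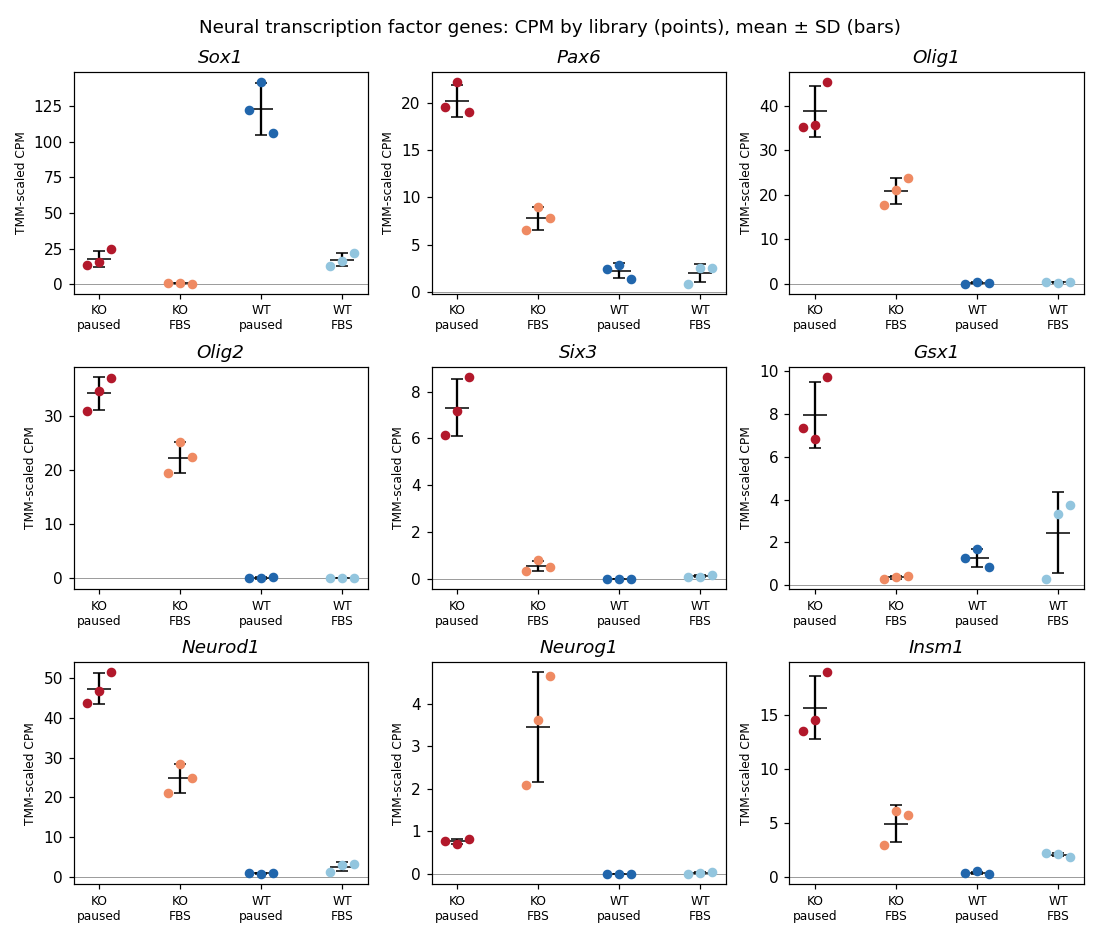
CPM (TMM-scaled, linear axes, a separate scale per panel) of the 9 genes in KO paused, KO FBS, WT paused and WT FBS libraries, with 1 point per library and the group mean ± SD (n = 3) in black. Sox1 is highest in WT paused libraries (106 to 142 CPM), and Pax6, Olig1, Olig2, Six3, Gsx1, Neurod1 and Insm1 are highest in KO paused libraries.

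Per kilobase of transcript, which allows genes to be compared within a group, Olig1 (17.9 ± 2.66 CPM per kb, SD, n = 3) and Neurod1 (17.3 ± 1.41) led in KO paused cells and overlapped each other, followed by Olig2 (13.5 ± 1.19). Insm1 (5.07), Gsx1 (4.49) and Sox1 (3.66) formed a middle range in which neighbours overlapped, and Pax6 (1.73), Six3 (1.34) and Neurog1 (0.453) closed the order without overlap. In KO FBS cells Olig1 (9.62), Neurod1 (9.09) and Olig2 (8.83) again stood above the rest and overlapped among themselves, and Gsx1 (0.208), Sox1 (0.126) and Six3 (0.1) closed the order. The ranking differed in WT cells. Sox1 led with 25.5 ± 3.81 CPM per kb in WT paused and 3.57 ± 0.966 in WT FBS cells, ahead of Gsx1 with 0.717 ± 0.232 in WT paused and 1.38 ± 1.06 in WT FBS cells. Olig2 stood at 0.0357 in WT paused and 0.0249 in WT FBS cells, and Neurog1 at 0 and 0.0125.

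Sox1, the earliest marker of committed neural progenitors, followed a course of its own. It had 13.3, 15.3 and 24.4 CPM in KO paused libraries and 0.523, 0.857 and 0.444 CPM in KO FBS libraries. WT paused libraries held 122, 142 and 106 CPM and WT FBS libraries 13, 16.6 and 22.2 CPM. Paused libraries lay above FBS libraries without overlap in both genotypes, and KO paused libraries covered about the range of WT FBS libraries. The log2 fold change on pausing was 4.86 ± 0.33 (SE) in KO cells and 2.82 ± 0.25 in WT cells. Between genotypes it was −2.79 ± 0.24 for KO paused against WT paused cells and −4.84 ± 0.33 for KO FBS against WT FBS cells, so Sox1 was lower in KO cells by a 6.92-fold difference when paused and a 28.6-fold difference in FBS. The KO FBS level rests on 12, 24 and 14 counts. The 50 tested genes nearest to Sox1 on chromosome 8 had a median log2 fold change of −0.44 in each genotype comparison and of 0.29 on pausing of KO cells. The part of the region in the change of Sox1 was not tested.

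Pax6, a paired-box factor of the dorsal forebrain, spinal cord and eye, was highest in KO paused libraries with 19.5, 22.2 and 19.0 CPM, against 6.54, 8.96 and 7.8 CPM in KO FBS libraries. WT paused libraries held 2.45, 2.9 and 1.36 CPM and WT FBS libraries 0.878, 2.53 and 2.56 CPM. The KO groups stood apart from each other and above both WT groups, which overlapped. On pausing, the log2 fold change was 1.38 ± 0.25 in KO cells and −0.05 ± 0.33 in WT cells. Pax6 was higher in KO cells by 3.26 ± 0.30 on the log2 scale when paused and by 1.83 ± 0.28 in FBS. Its antisense partner Pax6os1 had at most 3 counts over the libraries of a group.

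Six3, a homeobox repressor of the anterior forebrain, was close to silent outside KO paused cells. Its counts were 126, 155 and 286 in KO paused libraries and 8, 22 and 16 in KO FBS libraries. They were 0, 0 and 0 in WT paused and 1, 3 and 5 in WT FBS libraries. In CPM, KO paused libraries had 6.16, 7.19 and 8.62 and KO FBS libraries 0.349, 0.786 and 0.507, a log2 fold change of 3.72 ± 0.28 with no overlap. With a floor of 3 counts over the WT paused group, Six3 was at least 108-fold higher in KO paused than in WT paused cells. WT FBS cells, where only 9 counts were seen, stood 1.73-fold above that floor. KO FBS cells had 4.62 times the WT FBS level (95% counting interval 2.24 to 10.7). Intervals of this kind cover counting error only, and a floor leaves out the counting error of the group set against it. Six3os1, whose exons overlap Six3 on the other strand, had 230 counts over the KO paused libraries and 23 over the KO FBS ones, with 2 over the WT paused and 9 over the WT FBS ones, the same order of groups as Six3. Whether counting used strand is not given in the sources used here, and reads of Six3 and Six3os1 may not be told apart.

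Gsx1, a homeobox factor of ventral telencephalic and spinal progenitors, had 7.33, 6.82 and 9.73 CPM in KO paused libraries and 0.305, 0.357 and 0.444 CPM in KO FBS libraries. WT paused libraries held 1.28, 1.68 and 0.859 CPM and WT FBS libraries 0.293, 3.31 and 3.76 CPM. Pausing thus separated the KO groups fully, with a log2 fold change of 4.40 ± 0.53, and left the WT groups overlapping. The WT overlap came from WT FBS replicate 1, with 3 counts of Gsx1 against 119 and 107 in the other libraries of its group. The fitted log2 fold change of WT paused against WT FBS cells was −1.18 ± 0.52 with that library, where Gsx1 was not called, and −1.61 without it, where it was called lower. KO paused cells stood above WT paused cells (2.72 ± 0.50), while KO FBS cells stood below WT FBS cells (−2.85 ± 0.55, and −3.24 without WT FBS replicate 1). In FBS the groups overlapped through the same library.

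Olig1 and Olig2, the neighbouring bHLH genes of the oligodendrocyte lineage, behaved as a pair. Olig1 had 35.1, 35.7 and 45.3 CPM in KO paused libraries and 17.7, 21.0 and 23.7 CPM in KO FBS libraries. Olig2 had 31.0, 34.7 and 37.0 CPM in KO paused libraries and 19.4, 25.2 and 22.4 CPM in KO FBS libraries. Both were present in every KO library, with 406 to 1504 counts of Olig1 and 446 to 1228 of Olig2, and nearly absent from WT libraries. The Olig1 counts were 0, 4 and 5 in WT paused and 4, 6 and 9 in WT FBS libraries. Those of Olig2 were 0, 0 and 6 in WT paused and 0, 3 and 3 in WT FBS libraries. In paused cells the KO level was 190 times the WT level for Olig1 (95% counting interval 100 to 416) and 249 times for Olig2 (114 to 679). In FBS it was 280 times for Olig2 (128 to 765), and the fitted fold for Olig1 was 79.2 (log2 6.31 ± 0.30). The pausing effect in KO cells was small beside that, at log2 0.90 ± 0.18 for Olig1 and 0.62 ± 0.19 for Olig2, although paused and FBS libraries did not overlap for either gene. The call for Olig2 was lost in 4 of the 12 fits that left out a library each (KO FBS replicate 1 or 3, KO paused replicate 2 or 3), with 0.51 to 0.71 on the log2 scale over all 12. In WT cells the ratio of paused to FBS was 0.822 for Olig1 (0.327 to 1.91) and 1.73 for Olig2 (0.464 to 6.49), so no difference was detectable at these counts.

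Neurog1, the proneural factor that starts neurogenesis in cranial sensory and dorsal forebrain progenitors, was the member that went against the others. It had 0.782, 0.696 and 0.814 CPM in KO paused libraries, against 2.09, 3.61 and 4.66 CPM in KO FBS libraries. The counts behind them were 16, 15 and 27 in KO paused and 48, 101 and 147 in KO FBS libraries, without overlap in CPM, and the log2 fold change was −2.17 ± 0.31. In WT cells it was at 0 in all 3 paused libraries and at 0, 1 and 1 counts in FBS libraries. KO paused cells were at least 11.1-fold higher than WT paused cells, with the floor of 3 counts, and KO FBS cells had 134 times the WT FBS level with a counting interval of 36.7 to 1110.

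Neurod1, a bHLH factor of differentiating neurons that in the mouse acts downstream of the neurogenins, stood high in both KO groups. It had 43.8, 46.8 and 51.4 CPM in KO paused libraries and 21.2, 28.5 and 24.8 CPM in KO FBS libraries. WT paused libraries held 1.18, 0.841 and 0.949 CPM and WT FBS libraries 1.37, 3.18 and 3.37 CPM. Paused and FBS libraries were apart in both genotypes but in opposite directions. The log2 fold change on pausing was 0.93 ± 0.18 in KO cells and −1.54 ± 0.30 in WT cells. Neurod1 was higher in KO cells by 5.59 ± 0.26 on the log2 scale when paused and by 3.12 ± 0.21 in FBS. Cerkl, which overlaps Neurod1 on the same strand, had 42 counts over the KO paused libraries, against 3611 of Neurod1, and 63 over the KO FBS ones, against 2065. Over the WT paused libraries it had 5 counts against 42 of Neurod1, and over the WT FBS ones 18 against 224.

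Insm1, a zinc-finger repressor that acts as progenitors become neurons or endocrine cells, had 13.5, 14.6 and 19.0 CPM in KO paused libraries and 2.92, 6.11 and 5.68 CPM in KO FBS libraries. WT paused libraries held 0.294, 0.467 and 0.271 CPM and WT FBS libraries 2.15, 2.09 and 1.86 CPM. As with Neurod1, paused libraries were above FBS libraries in KO cells and below them in WT cells, with no overlap in either. The log2 fold change was 1.67 ± 0.23 on pausing of KO cells and −2.60 ± 0.42 on pausing of WT cells, where the paused level rests on 3, 5 and 6 counts. KO cells were higher by 5.56 ± 0.36 when paused and by 1.29 ± 0.26 in FBS, so that the genotypes were nearer to each other for Insm1 in FBS than for Neurod1, Olig1 or Olig2.

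**Figure D2:**
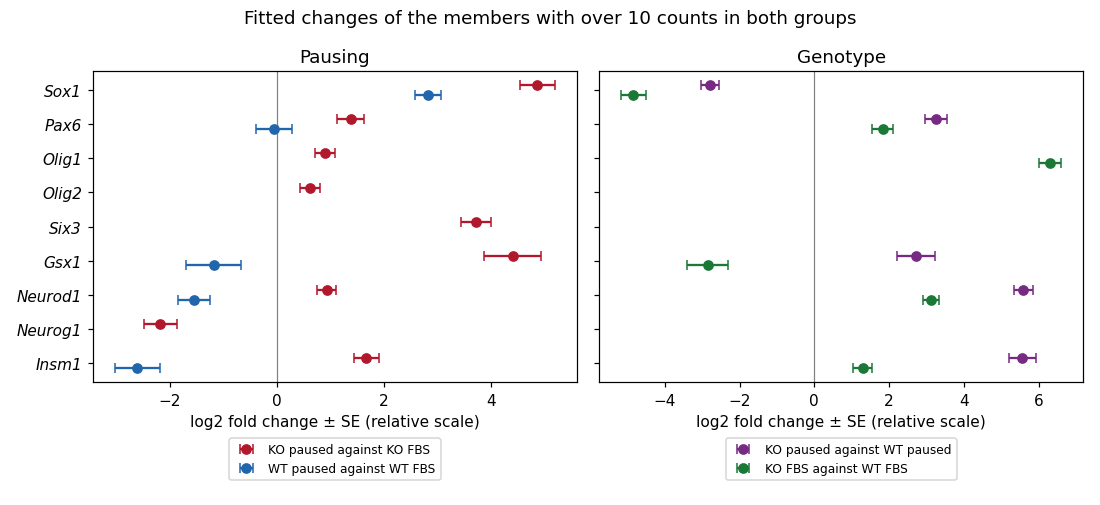
Log2 fold changes ± SE (edgeR, relative scale) of each gene on pausing (left: KO paused against KO FBS cells in red, WT paused against WT FBS cells in blue) and between genotypes (right: paused cells in purple, FBS cells in green), drawn only where both groups have over 10 counts. Neurod1 and Insm1 lie right of 0 in KO cells and left of it in WT cells, and Sox1 lies left of 0 in both genotype comparisons.

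The first comparison asks what pausing does in the cells labelled Mettl3-KO. On the relative scale 8 members were called higher and 1 lower at an edgeR adjusted p under 0.05, where 22.3% of all tested genes were called higher and 20.6% lower, and the members' median log2 fold change was 1.38 against 0.01 over all genes. The rule used this contrast, so nothing is read from the count. Measured per cell, the median gene fell by 0.72 on the log2 scale, 2.45% of genes were called higher and 45.7% lower, and the members split into 4 called higher, 1 called lower and 4 not called. Sox1 (4.12), Six3 (2.96), Gsx1 (3.70) and Insm1 (0.86) were the members still called higher, and Neurog1 (−2.96) was still called lower. The changes of Olig1 (0.14 ± 0.33), Neurod1 (0.15 ± 0.32), Pax6 (0.60 ± 0.34) and Olig2 (−0.16 ± 0.33, with its direction turned) were not called per cell.

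Other genes of the neural lineage, 102 in lists of neural progenitor, proneural and patterning, neuron and glial genes that leave out the members, moved both ways when KO cells were paused. Of the 70 that could be tested, 23 were called higher, 19 lower and 28 not, with a median log2 fold change of 0.26, and per cell 8 were called higher and 22 lower. The lower calls numbered 11 of 71 tested without KO FBS replicate 3, 12 of 70 without KO FBS replicate 2 and 12 of 77 without KO paused replicate 2. Among 22 progenitor genes 10 rose, such as Sox21, a SoxB2 factor (26.9 ± 2.04 CPM in KO paused and 7.48 ± 0.823 in KO FBS cells, log2 1.85 ± 0.18, edgeR adjusted p = 7.6e-06), and Cdh2, N-cadherin (59.5 ± 6.04 and 23.7 ± 4.03 CPM, log2 1.33 ± 0.16, edgeR adjusted p = 5.07e-05). Another 6 fell, among them the anterior homeobox genes Hesx1 (0.253 ± 0.113 CPM in KO paused and 4.41 ± 0.576 in KO FBS cells, log2 −4.10 ± 0.44, edgeR adjusted p = 1.85e-05) and Otx2 (4.1 ± 1.52 and 17.5 ± 1.61 CPM, −2.13 ± 0.28, edgeR adjusted p = 7.87e-05). Per cell, Cdh2 was not called (0.55, edgeR adjusted p = 0.137).

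Of 14 proneural and patterning factors 4 rose and 3 fell. Gbx2, a midbrain and hindbrain boundary factor that embryonic stem cells also express, rose (63.9 ± 12.7 CPM in KO paused and 15.2 ± 3.73 in KO FBS cells, log2 2.07 ± 0.46, edgeR adjusted p = 0.00342), and Nkx6-2, a homeobox factor of ventral progenitors and oligodendrocytes, rose by 2.32 ± 0.18 (edgeR adjusted p = 1.55e-06). Lmx1b fell by 2.53 on the log2 scale (edgeR adjusted p = 0.000333). Neuron genes split evenly, 6 higher and 6 lower of 22. Gad1, the enzyme that makes GABA, had 26.4 ± 1.68 CPM in KO paused and 2.39 ± 0.675 in KO FBS cells (log2 3.47 ± 0.30, edgeR adjusted p = 3.6e-06), while the growth cone gene Gap43 had 3.64 ± 0.357 and 21.3 ± 3.12 CPM (−2.54 ± 0.20, edgeR adjusted p = 1.68e-06) and the tau gene Mapt 13.5 ± 0.368 and 29.5 ± 3.27 CPM (−1.13 ± 0.13, edgeR adjusted p = 2.84e-05). Of 13 glial genes 4 rose, with the glutamate transporter gene Slc1a3 among them (log2 1.41 ± 0.21, edgeR adjusted p = 0.000217), and 4 fell, with the myelin gene Mbp among them (−1.64 ± 0.22, edgeR adjusted p = 9.23e-05). Per cell, Slc1a3 was not called (0.70, edgeR adjusted p = 0.0613). Nkx6-2 counts in both the patterning and the glial list.

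**Figure D3:**
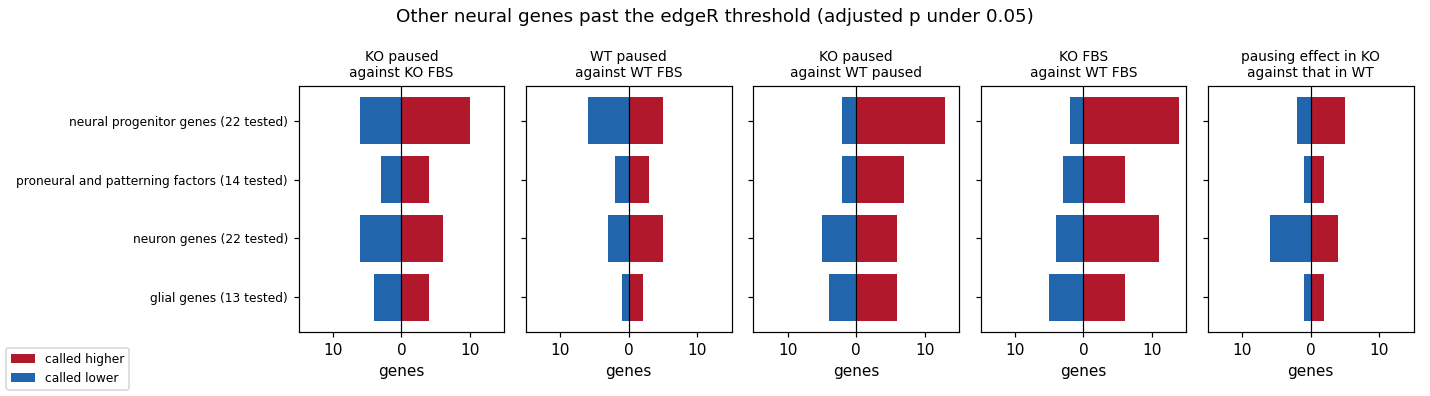
Numbers of genes called higher (red, right) and lower (blue, left) by edgeR on the relative scale in each list of other neural genes, for the 4 comparisons of groups and for the difference between both pausing effects. In KO cells on pausing, 10 progenitor genes were called higher and 6 lower, and neuron genes 6 and 6. The genotype comparisons lean to higher most clearly in progenitor genes, while neuron genes in paused cells have 6 higher and 5 lower.

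The second comparison asks the same of WT cells. Here 1 member was called higher, 3 lower and 5 not, where 18.5% of genes were called higher and 20.1% lower. Without WT FBS replicate 1, 1 was called higher and 4 lower, with Gsx1 added. The members were chosen with values of these groups known, so nothing is read from these counts. The call for Six3, at 0 against 9 counts, was lost in 4 of the 12 fits that left out a library each. Per cell, the median gene fell by 1.05 on the log2 scale, 1.15% of genes were called higher and 68.8% lower. On that scale Sox1 was still called higher at 1.78 ± 0.33, and Pax6 (−1.01), Six3, Gsx1 (−2.16), Neurod1 (−2.56) and Insm1 (−3.63) were called lower.

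Of the 70 other neural genes, 15 were called higher, 12 lower and 43 not when WT cells were paused. Without WT FBS replicate 1, when 75 could be tested, 17 were called higher and 23 lower. Per cell 4 of the 70 were called higher and 38 lower, and with only the WT groups in the fit 5 of 50 tested were called lower on the relative scale. Sox21 rose here too (14 ± 1.76 CPM in WT paused and 3.4 ± 1.09 in WT FBS cells, log2 2.11 ± 0.20, edgeR adjusted p = 1.83e-05), as did the neural adhesion gene Ncam1 (49.2 ± 1.71 and 13.4 ± 3.22 CPM, log2 1.90 ± 0.17, edgeR adjusted p = 1.09e-05) and the zinc-finger gene Zic2 (129 ± 6.53 and 23.7 ± 10.8 CPM, log2 2.40 ± 0.27, edgeR adjusted p = 5.5e-05). The midbrain factors En1 (1.96 ± 0.34, edgeR adjusted p = 0.000927) and En2 (1.39 ± 0.21, edgeR adjusted p = 0.000367) rose as well, and per cell En2 was not called (0.38, edgeR adjusted p = 0.326). Sox3, the SoxB1 relative of Sox1, had 0.268 ± 0.109 CPM in WT paused and 2.56 ± 1.15 in WT FBS cells (−3.38 ± 0.41, edgeR adjusted p = 0.000105), so it fell on pausing of WT cells, in which Sox1 stood higher.

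A further pair of comparisons set KO against WT cells. In paused cells 8 members were called higher and 1 lower on the relative scale, where 27.7% of genes were called higher and 24.7% lower, and per cell the same split of 8 and 1 stood beside 27.1% of genes called higher and 5.62% lower. In FBS 7 members were called higher and 2 lower, beside 29.2% of genes called higher and 28.8% lower, and 7 and 2 per cell, beside 19.1% and 9.81%. The choice of members drew on these groups too, so nothing is read from these counts of members.

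Other neural genes leaned to higher in KO cells. Of 70, 32 were called higher, 13 lower and 25 not in paused cells, and 37 higher, 13 lower and 20 not in FBS. The median log2 fold change was 0.62 in paused cells and 0.73 in FBS cells, where the median over all genes was near 0 in paused cells and −0.03 in FBS cells. Progenitor genes carried 13 of the higher calls in paused cells and 14 in FBS cells, of 22 tested, with 2 lower in each. Prom1, the stem cell surface protein prominin, had 28.6 ± 2.55 CPM in KO paused and 3.13 ± 0.704 in WT paused cells (log2 3.22 ± 0.20, edgeR adjusted p = 1.05e-07), and Cdh2 had 59.5 ± 6.04 and 9.36 ± 1.07 CPM (2.66 ± 0.18, edgeR adjusted p = 2.27e-07). Ncam1 was lower in KO paused cells, at 14.8 ± 1.93 against 49.2 ± 1.71 CPM (−1.73 ± 0.17, edgeR adjusted p = 3.59e-06). In FBS, Pou3f2, a POU factor of neural progenitors, had 2.8 ± 0.294 CPM in KO and 0.142 ± 0.0899 in WT cells (4.20 ± 0.34, edgeR adjusted p = 8.52e-07, and 4.91 without WT FBS replicate 3). The bHLH gene Atoh1, a proneural factor of hindbrain and inner ear, had 124 counts in KO FBS libraries and 0 in WT FBS libraries. Of 14 proneural and patterning factors, 7 were called higher and 2 lower in paused cells, with a median log2 fold change of 1.23. In FBS cells 6 were called higher and 3 lower, with a median of 0.63. On the relative scale the lean was weaker in the glial and neuron lists. Of 13 glial genes, 6 were called higher and 4 lower in paused cells, and 6 and 5 in FBS cells. Neuron genes were nearly even in paused cells, with 6 called higher, 5 lower and 11 not of 22. Per cell, 9 neuron genes were called higher and 2 lower in paused cells, and 6 glial genes higher and 0 lower. On that scale 27.1% of all genes were called higher and 5.62% lower. In KO FBS against WT FBS cells, 11 of the 22 neuron genes were called higher, 4 lower and 7 not, with a median log2 fold change of 0.44. The microtubule gene Map2 was among the higher ones (24.3 ± 2.4 against 9.12 ± 1.58 CPM in WT FBS, log2 1.39 ± 0.14, edgeR adjusted p = 4.42e-06) and Stmn2 and Elavl3 were among the lower ones (Stmn2 at 59.2 ± 4.79 against 146 ± 14.4 CPM, −1.30 ± 0.11, edgeR adjusted p = 1.14e-06).

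The last comparison is a difference of differences, in which the WT response to pausing is subtracted from the KO response. On the relative scale 6 members had a higher and none a lower pausing effect in KO cells by edgeR's threshold, where 8.83% of genes were called higher and 8.89% lower, and per cell 6 and 0, beside 3.04% and 1.66%. Values of all 4 groups were known when the members were chosen, so nothing is read from these counts either. The fitted differences were 2.05 ± 0.42 for Sox1, 1.43 ± 0.41 for Pax6, 5.58 ± 0.74 for Gsx1, 2.47 ± 0.35 for Neurod1 and 4.27 ± 0.47 for Insm1, and Six3 was called with WT counts too low to size it. The call for Pax6 was lost in 10 of the 12 fits that left out a library each, with differences of 1.10 to 1.71. Of 70 other neural genes 12 were called higher and 10 lower, and without WT FBS replicate 1 they were 22 and 13 of 75 tested.

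Genes that act around the members were read from fixed lists as well. Rest, which encodes the repressor that silences neuronal genes outside neurons, had 213 ± 9.17 CPM in KO paused and 390 ± 20.6 in KO FBS cells (log2 −0.87 ± 0.11, edgeR adjusted p = 5.24e-05), and 351 ± 39.6 CPM in WT paused and 289 ± 37.2 in WT FBS cells (0.28 ± 0.11, edgeR adjusted p = 0.0558, and called at 0.36 without WT paused replicate 2 or at 0.37 without WT FBS replicate 3). Per cell, Rest was called lower on pausing of both genotypes, at −1.62 in KO cells (edgeR adjusted p = 1.58e-05) and −0.78 in WT cells (edgeR adjusted p = 0.0257). The difference of both pausing effects of Rest was −1.15 ± 0.15 (edgeR adjusted p = 0.000368), and per cell −0.83 (edgeR adjusted p = 0.372). Of 15 genes of the REST complex list, 5 were called higher and 4 lower on pausing of KO cells, and 2 higher and 3 lower on pausing of WT cells. Of 17 tested genes of the Notch pathway, which holds progenitors back from becoming neurons, 12 were higher and 1 lower in KO paused than in WT paused cells, and 13 were higher and 1 lower in KO FBS than in WT FBS cells. The ligand gene Jag2 (58.9 ± 2.8 against 15.2 ± 0.696 CPM in paused cells, log2 1.95 ± 0.11, edgeR adjusted p = 5.47e-08) and the receptor gene Notch1 (106 ± 5.29 against 40.4 ± 4.08 CPM in FBS, log2 1.39 ± 0.10, edgeR adjusted p = 2.41e-07) were among them. Hes1, a Notch target that represses proneural genes, was the lower one in FBS (15 ± 1.52 in KO and 39.2 ± 7.76 CPM in WT cells, −1.38 ± 0.14, edgeR adjusted p = 3.79e-06).

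Markers of other cell types were read beside the members, since embryonic stem cell cultures can hold differentiating cells. The summed CPM of 17 pluripotency genes was 4300 to 4660 in KO paused, 3490 to 4010 in KO FBS, 7500 to 8040 in WT paused and 5960 to 7200 in WT FBS libraries, and 11 of the 17 were called lower in KO paused than in WT paused cells and 12 of 17 in KO FBS than in WT FBS cells, with 0 and 2 called higher. Trophoblast genes summed to 61.1 to 70.5 CPM in KO paused and 218 to 279 in KO FBS libraries, and all 11 tested were lower on pausing of KO cells. They summed to 37.7 to 52.9 CPM in WT paused and 56.6 to 88.2 in WT FBS libraries, with 1 called higher and 5 lower of 11. No trophoblast gene was at 0 in KO paused, KO FBS or WT FBS libraries, and only Plac1 was in WT paused libraries. Extraembryonic endoderm genes summed to 378 to 386 CPM in KO paused, 286 to 309 in KO FBS, 134 to 172 in WT paused and 258 to 406 in WT FBS libraries, and 12 of 12 tested were lower on pausing of WT cells. Col4a1 (161 ± 1.95 CPM) and Col4a2 (116 ± 2.95 CPM) made up most of the KO paused sum. Against WT cells, 4 of the 12 were called higher and 4 lower in KO paused cells. In KO FBS cells 3 were called higher and 7 lower. Mesendoderm genes summed to 18.1 to 19.8 CPM in KO paused, 20.7 to 23.8 in KO FBS, 9.22 to 10.3 in WT paused and 19.7 to 24.5 in WT FBS libraries. Of 8 tested neural crest genes 5 were higher and 2 lower in KO than in WT cells in each condition, and 2 were higher and 2 lower on pausing of KO cells. Of the neural lists, 3 of 102 genes had no count in KO paused and 3 in KO FBS libraries. In WT paused libraries 15 had none, Neurog2 and Dcx among them, and 7 had none in WT FBS libraries. Zeros depend on depth, and WT paused libraries held 11589217, 10339130 and 22102745 gene counts, against 19029134 to 29034170 in KO paused libraries. The part of depth in these zeros was not tested. The part of any other cell type in the members' levels was not tested.

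**Figure D4:**
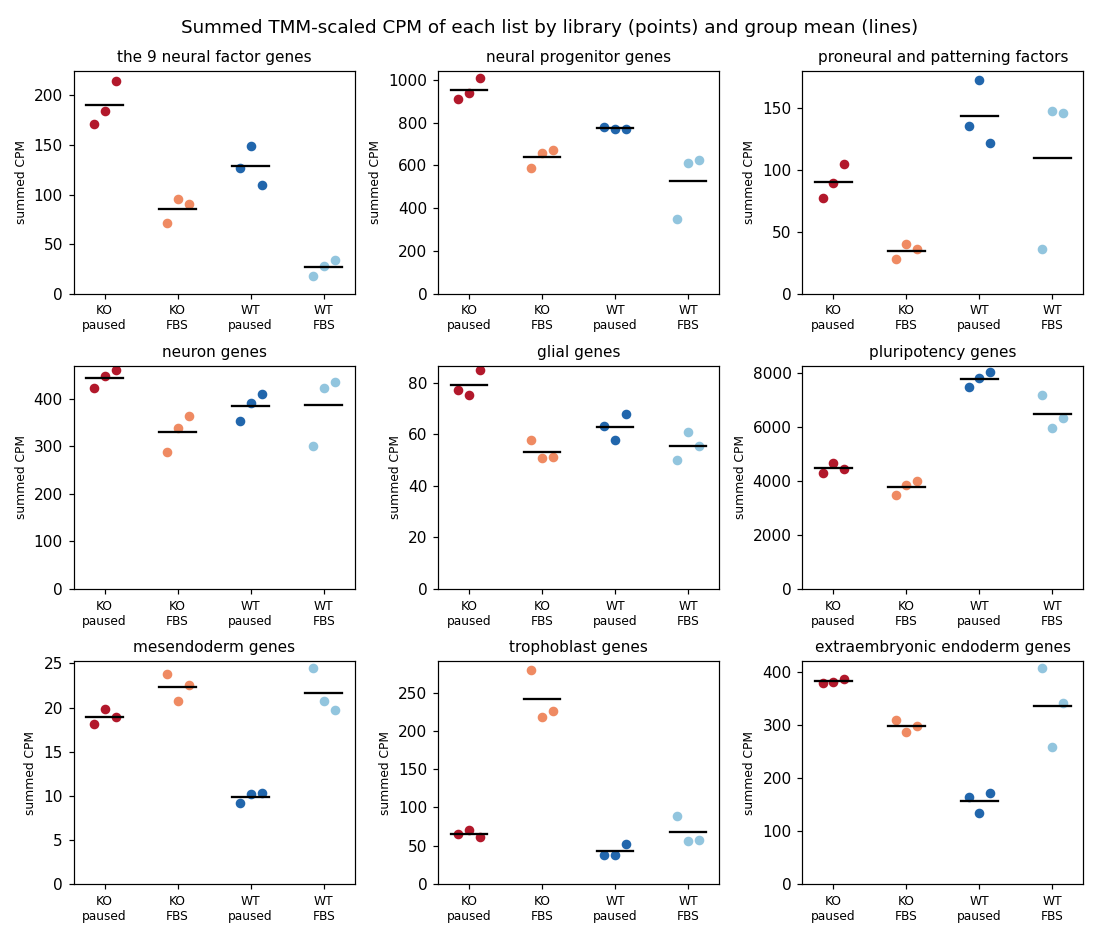
Summed CPM (TMM-scaled, linear axes from 0, a separate scale per panel) of the 9 genes and of 8 gene lists in KO paused, KO FBS, WT paused and WT FBS libraries, with 1 point per library and a line at the group mean. The 9 genes sum to 171 to 215 CPM in KO paused libraries, and in proneural and patterning factors WT FBS replicate 1 lies at 36.1 CPM, far under the other 2 libraries of its group. That gap is mainly Gbx2, with 254 counts there against 4859 and 3734. Gbx2 also makes up most of that list's sum in WT paused cells (123 ± 25.3 CPM).

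The genes whose levels over the 12 libraries were most like the mean standardized log2 level of the 9 members, among 10747 genes ranked, were Cdh2 (Pearson r = 0.991), Mest (0.991), Jag2 (0.988), Ermp1 (0.987), Serpinh1 (0.984) and Csrp2bp (0.983). The points share 4 groups and the same libraries, so r says mainly that these genes order the groups as the members do, and it carries no p. Mest, an imprinted gene, had 98.4 ± 8.18 CPM in KO paused and 51.6 ± 6.3 CPM in KO FBS cells, with 17.5 ± 2.91 in WT paused and 20.4 ± 4.6 in WT FBS cells, and Jag2 58.9 ± 2.8, 35.4 ± 3.91, 15.2 ± 0.696 and 19.9 ± 1.9 CPM.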

How the data were processed

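The files deposited for the 12 libraries are unnormalized counts, with 24421 gene rows and 92 ERCC rows, and log2 values normalized to cell number. The deposited log2 values of the 14494 genes found in both were log2(count + 0.5) shifted by a constant per library. The submitters' processing notes name mm10, edgeR 3.32.1, Subread 1.5.0, featureCounts and Trim Galore 0.4.0. No aligner, annotation or strand option is given in those notes or labels. The kit is directional, per the labels' protocols, and the spike-in went into extracted RNA.

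Counts were fitted with edgeR 4.0.16 in R 4.3.3 (4 group means, robust quasi-likelihood, TMM, minimum count 10 and total 15), with Benjamini-Hochberg adjustment over 15281 genes and a threshold of 0.05. Per-cell values used ERCC totals, multiplied by TMM factors over the ERCC rows, as library sizes. The SE of a log2 fold change is its absolute value divided by the square root of edgeR's F statistic. Where a group had 10 or fewer counts, ratios of counts carry 95% intervals, with a floor of 3 counts over a group at 0. Log2 CPM used a prior count of 2. Gene positions came from GENCODE vM21, which 23375 gene rows matched by symbol. The members, lists and tests were chosen with earlier results of these data known. Named list genes are up to 4 called genes with the lowest adjusted p and at least 1 CPM in the higher group, plus the most abundant gene, and the text prints some of them, chosen after their values were seen. Neurog2 and Dcx were named after their values were seen. Alternatives were DESeq2 1.42.0, limma 3.58.1, other scalings and filters, and each library left out.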

Additional observations from a re-analysis of the deposited data

Results flagged for a closer look

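For Neurod1 and Insm1 the libraries of paused and FBS cells did not overlap in either genotype and moved in opposite directions. The log2 change on pausing was 0.93 for Neurod1 in KO cells and −1.54 in WT cells, and 1.67 for Insm1 in KO cells and −2.60 in WT cells. Both genes were chosen with this contrast in view, so the opposite direction was not tested. Per cell the KO value of Neurod1 was 0.15 and was not called.

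For other neural genes the difference between the pausing effects, KO minus WT, passed edgeR's threshold on the relative scale. Among progenitor genes it was −2.30 for Ncam1, 1.62 for Cdh2, 1.49 for Prom1 and −1.99 for Zic2. It was 2.30 for Nkx6-2, a patterning and glial gene. Among neuron genes it was −1.85 for Mapt, 3.0 for Stmn3, 1.57 for Elavl3 and −1.23 for Nefl, and among glial genes −1.76 for Mbp and 1.36 for Slc1a3. Per cell, Nefl (edgeR adjusted p = 0.3) and Mbp (edgeR adjusted p = 0.105) were not called.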

How the results depend on the processing

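Of 1066 alternative values of the 9 genes, 938 moved by less than the spread between replicates, 127 moved by more and 1 was counted as reversed. It was the KO pausing effect of Olig2, at −0.16 with ERCC scaling. A reversal was counted only where the main fit called the change. Uncalled changes also turned sign in some settings, such as Olig2 on pausing of WT cells (0.74, and −0.3 with ERCC scaling). Of the moved and reversed values, ERCC scaling gave 24, the reversed value included. Limma on the deposited log2 values, which are also per cell, gave 30. Differences of mean log2 CPM gave 10, 15 and 20 with prior counts of 0.5, 2 and 5. The counts below are of other neural genes, of which 70 were tested in the main setting and with ERCC scaling, RLE, upper-quartile scaling or the block, 64 with limma, 50 with only the WT groups, 101 with DESeq2 or no filter and 70 to 77 with a library left out. On pausing of KO cells the 42 calls became 25 with limma, the 23 higher calls 8 with ERCC scaling and 7 with limma. On pausing of WT cells the 27 calls became 42 with ERCC scaling and 43 with limma, the 15 higher calls 4 and 4, and the 12 lower calls 38 and 39, and 5 with only the WT groups fitted. The 13 genes lower in KO paused than in WT paused cells became 6 with ERCC scaling and 5 with limma, and the 10 with a lower pausing effect in KO became 3 and 3. With each library left out, KO pausing gave 32 to 52 calls, 19 to 30 higher and 11 to 22 lower, the lowest of these without KO FBS replicate 3. WT pausing gave 23 to 40, 14 to 17 higher and 8 to 23 lower. Paused genotype calls ranged over 37 to 50, 27 to 35 higher and 10 to 15 lower, and FBS genotype calls over 44 to 57, 31 to 39 higher and 12 to 18 lower. The differences of pausing effects gave 15 to 35, 8 to 22 higher and 7 to 13 lower. The highest of each range came without WT FBS replicate 1, and for lower calls on KO pausing also without KO FBS replicate 1. The tested set differs between these settings, and the cause was not tested further. RLE and upper-quartile scaling, DESeq2 and no filter on low counts kept every count of calls within 1.5 times. Whether replicate numbers mark a shared culture or day is not in the labels. Same-numbered pairs had r of −0.046 to 0.252, 9 of 18 over 0.1, and in 28 of 36 cases a library correlated best with its own number, a hint from the data of some pairing. Not every pair was over 0.1, so the samples are not treated as paired. A replicate block gave 44 calls on KO pausing, 28 on WT pausing, 46 between paused genotypes, 51 in FBS and 24 for the difference. Counts under 10 limit Olig1, Olig2, Six3 and Neurog1 in WT cells.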
